A study of Mus musculus with 12 samples.

Results

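The 10 genes described here make and move bile acids in the liver. Cyp7a1, Cyp8b1, Cyp27a1 and Cyp7b1 encode enzymes of bile acid synthesis, Slc10a1, Slco1a1, Slco1a4 and Slco1b2 encode carriers that take bile acids and other organic anions up from blood, Abcb11 encodes the bile salt export pump, and Nr0b2 encodes a repressor of synthesis. They were chosen by name, not by a measured value, from the 27179 genes of the count table, but with earlier results of these data known. All 10 were among the 13947 genes with enough counts to be tested. RNA had been sequenced in bulk from 12 mouse livers in 4 groups of 3. The CD groups were fed chow and the LPD groups a diet low in protein. According to the study, mice of the Vec groups were injected with empty vector, although the sample titles call them WT. Those of the c-MET/β-catenin groups were injected with human c-MET and with β-catenin lacking its N-terminal end, which keeps it active. The study describes its tumour model in a mixed 129/Ola and C57BL/6 background, whereas its methods name C57/Bl3 males. The mice were males of 8 weeks when the diets began, and plasmids were delivered 1 week later by hydrodynamic tail vein injection. The oncogenes were inserted into the genome by Sleeping Beauty transposase under the EF1α promoter, so that only some hepatocytes carried them, and livers were collected when the CD c-MET/β-catenin mice had reached their end point. The study gives as many mice as libraries in each group, so each library was taken as a separate mouse, although the labels do not name the mouse behind each one.

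Bile acids are made from cholesterol in hepatocytes along a classic pathway, which Cyp7a1 starts and limits, and an alternative pathway, which Cyp27a1 starts and Cyp7b1 continues. Cyp8b1 adds the hydroxyl group that separates cholic acid from the muricholic and chenodeoxycholic acids, and so sets the makeup of the bile acid pool. Most bile acids return from the intestine through portal blood, are taken up by hepatocytes, mainly by Slc10a1 (NTCP), and are secreted again by Abcb11 (BSEP). When bile acids activate the receptor FXR, encoded by Nr1h4, the FXR target Nr0b2 (SHP) and the intestinal hormone FGF15 hold Cyp7a1 and Cyp8b1 down.

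The 10 genes are protein coding and lie on 7 chromosomes of the mouse genome (mm10). The 3 Slco genes are neighbours on chromosome 6, with Slco1b2 at chr6:141629452-141686646 on the plus strand, and Slco1a4 at chr6:141805438-141856284 and Slco1a1 at chr6:141907281-141946962 on the minus strand. Cyp7a1 (chr4:6265612-6275632) and Nr0b2 (chr4:133553376-133556686) share chromosome 4, while Cyp8b1 lies at chr9:121914356-121916305, Cyp27a1 at chr1:74713148-74737897, Cyp7b1 at chr3:18071944-18243890, Slc10a1 at chr12:80953185-80968705 and Abcb11 at chr2:69238282-69342616. Slco1a1 and Slco1a4 are close relatives, but only 1.64% and 1.61% of the 50-base windows in their annotated transcripts also occur in a transcript of another gene. That share was 1.68% for Abcb11, 0.957% for Slc10a1 and 0% for the other 6 genes, so few reads of that length could have been split between relatives.

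RefSeq windows around the transcription start (GRCm38.p6) were found for 8 of the 10 genes. The 250 bases before the start are printed here for the 3 genes whose response to the oncogenes differed between diets (Cyp8b1, Slc10a1 and Slco1a1) and for Slco1a4, which was lower on LPD. Each is written 5′ to 3′ on the strand of the gene, all 4 on the minus strand, and capitals mark matches on either strand to AGGTCA (the core bound by many nuclear receptors), CAAGG (the core of LRH-1 sites), CTTTGA (the core of TCF/LEF sites, where β-catenin acts), GTTAAT (part of HNF1 sites) and TATAAA (the TATA box). The marked matches do not overlap, and Slc10a1 is shown with the first of its 2 windows. Cyp8b1 is at chr9:121916306-121916555, Slc10a1 at chr12:80968706-80968955, Slco1a1 at chr6:141946963-141947212 and Slco1a4 at chr6:141856221-141856470.
Cyp8b1: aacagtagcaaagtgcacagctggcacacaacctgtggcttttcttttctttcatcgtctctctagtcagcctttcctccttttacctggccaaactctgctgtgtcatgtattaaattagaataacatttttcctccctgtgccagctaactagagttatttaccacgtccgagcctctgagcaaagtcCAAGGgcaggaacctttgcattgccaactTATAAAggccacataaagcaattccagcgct
Slc10a1: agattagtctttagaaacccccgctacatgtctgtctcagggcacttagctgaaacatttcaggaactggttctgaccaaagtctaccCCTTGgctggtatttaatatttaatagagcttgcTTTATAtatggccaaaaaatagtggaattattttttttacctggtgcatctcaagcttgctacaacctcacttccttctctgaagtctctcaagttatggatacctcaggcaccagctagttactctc
Slco1a1: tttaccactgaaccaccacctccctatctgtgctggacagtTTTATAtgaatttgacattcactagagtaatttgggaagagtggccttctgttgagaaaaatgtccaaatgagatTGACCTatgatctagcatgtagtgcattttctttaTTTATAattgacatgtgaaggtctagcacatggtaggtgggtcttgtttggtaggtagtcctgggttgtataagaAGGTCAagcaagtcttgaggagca
Slco1a4: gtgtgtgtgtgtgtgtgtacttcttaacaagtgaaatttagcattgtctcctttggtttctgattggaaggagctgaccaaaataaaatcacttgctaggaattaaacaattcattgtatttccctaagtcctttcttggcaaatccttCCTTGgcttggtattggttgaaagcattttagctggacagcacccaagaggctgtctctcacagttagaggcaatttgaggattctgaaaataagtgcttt
The Cyp8b1 window held CAAGG at 60 to 56 bases and TATAAA at 31 to 26 bases before the start. The Slc10a1 window held CAAGG and TATAAA on the opposite strand, the Slco1a1 window held AGGTCA on each strand and TATAAA at 2 places on the opposite strand, and the Slco1a4 window held CAAGG on the opposite strand. CTTTGA was found in none of these 4 windows. Among 32851 mouse windows of this length, 14% held AGGTCA, 46% CAAGG, 13.8% CTTTGA, 6.43% GTTAAT and 12.4% TATAAA, so matches of this kind are common. Among the 4 other genes with a window, Nr0b2 held CAAGG at 3 places and Abcb11 was the only gene with CTTTGA.

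Levels are given in CPM, read counts relative to the size of the library, scaled by the trimmed mean of M values (TMM), and differences as log2 fold changes with their standard error (SE). A gene is said to have been called, to have risen or to have fallen, where the adjusted p of edgeR's quasi-likelihood test was under 0.05 over all genes tested. Libraries held 19476209 to 31990267 counts, and the lowest count of any of the 10 genes in a library was 107, for Slco1a4. Hepatocyte markers summed to between 63800 and 118000 CPM in every library, but markers of other liver cells were also detected, and the labels give liver as the tissue although they name hepatocytes as the cell type. In bulk tissue, fewer cells of a type and less RNA per cell cannot be told apart. The header numbers of the 12 columns fell into 3 runs, of which the run of 7 libraries held all 4 groups, and CD c-MET/β-catenin replicates 1 and 2 made up a run of their own. CD Vec replicate 2 stood apart on the second principal component of all genes. In CD c-MET/β-catenin replicates 1 and 3 the circadian clock gene Dbp was at 6.76 and 23.8 CPM, against 85.9 to 152 CPM in the other 10 libraries. The term for the clock genes in some fits was a score of Dbp, Tef, Per3 and Nr1d2 minus Arntl and Npas2 in these libraries. It was at -4.42, 0.9 and -3.24 in CD c-MET/β-catenin replicates 1 to 3, against -0.15 to 1.99 in all other libraries. Fits with this term therefore cannot separate the clock genes from the oncogenes on CD.

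On CD, the oncogenes came with lower expression of 5 of the 10 genes, of which only Cyp8b1, Slc10a1 and Slco1a1 were called in every setting tried. Cyp8b1, Cyp27a1, Cyp7b1, Slc10a1 and Slco1a1 fell in CD c-MET/β-catenin livers compared with CD Vec livers, and none of the 10 genes rose, also at an unadjusted p under 0.05. Over all genes tested, 16.7% fell and 18.7% rose. The groups did not overlap for 6 of the 10 genes, all of them lower with the oncogenes, against 42.6% of all genes tested in either direction. The median log2 fold change of the 10 genes was -0.74, compared with -0.01 over all genes.

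The 2 enzymes of the classic pathway behaved differently. Cyp8b1 was at 278, 412 and 417 CPM in CD Vec replicates 1 to 3 and at 46.2, 31.4 and 59.5 CPM in CD c-MET/β-catenin replicates 1 to 3. The highest oncogene library thus stood well under the lowest Vec library, and Cyp8b1 was 8.08-fold lower (log2 -3.01, SE 0.27, adjusted p = 2.71e-05), the largest change among the 10 genes in this comparison. Cyp7a1, the rate-limiting enzyme, was at 40.5, 197 and 144 CPM in CD Vec and at 193, 186 and 149 CPM in CD c-MET/β-catenin. All 3 oncogene libraries lay between CD Vec replicates 2 and 3, and CD Vec ranged over 4.87-fold through its low replicate 1. The log2 fold change of 0.47 was not called (SE 0.44, adjusted p = 0.438).

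In the alternative pathway, Cyp27a1 was at 358, 433 and 490 CPM in CD Vec and at 299.6, 317 and 278 CPM in CD c-MET/β-catenin. The groups were separate but close, and Cyp27a1 fell by 0.52 (SE 0.14, adjusted p = 0.013). Cyp7b1, an enzyme that is higher in male than in female mouse liver, was at 54.6, 510 and 256 CPM in CD Vec and at 53.9, 47.6 and 45.5 CPM in CD c-MET/β-catenin. CD Vec replicate 1 stood just above the oncogene libraries, and the fold change of -2.48 carried the largest error of the 10 genes (SE 0.75, adjusted p = 0.0245). In that library 8 male-biased hepatocyte genes summed to 1790 CPM, compared with 5540 and 6120 CPM in CD Vec replicates 2 and 3. The part of these genes in the Cyp7b1 result was not tested. The Cyp7b1 call was lost when CD Vec replicate 2 was left out (log2 fold change -1.67, adjusted p = 0.101) and when any library of CD c-MET/β-catenin was (adjusted p up to 0.0778), and the Cyp27a1 call was lost without CD Vec replicate 3 (-0.40, adjusted p = 0.0561). Both calls were also lost with a term for the header runs (adjusted p = 0.137 for Cyp27a1 and 0.281 for Cyp7b1) or for the clock genes (0.309 and 0.175). The Cyp27a1 call was further lost when libraries were scaled by total counts, which brought its difference to -0.23 (adjusted p = 0.19), and with only the 2 groups compared in the fit (adjusted p = 0.0711). The Cyp7b1 call was further lost without the filter on low counts (adjusted p = 0.0679) and with a replicate block (adjusted p = 0.054).

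Of the carriers, Slc10a1 was at 965, 711 and 700.3 CPM in CD Vec and at 167, 189 and 171 CPM in CD c-MET/β-catenin. The 3 oncogene libraries lay close together and far below every control library, of which replicate 1 was the highest, and Slc10a1 was 4.51-fold lower (log2 -2.17, SE 0.18, adjusted p = 1.73e-05). Slco1a1, a carrier of bile acids and steroid conjugates, was at 692, 739 and 864 CPM in CD Vec and at 202, 204 and 294 CPM in CD c-MET/β-catenin. It was 3.27-fold lower (log2 -1.71, SE 0.18, adjusted p = 5.63e-05), again without overlap. Slco1a4, its neighbour, was at 67.5, 40.9 and 31.0 CPM in CD Vec and at 31.2, 42.6 and 51.6 CPM in CD c-MET/β-catenin, and was not called (-0.15, SE 0.33, adjusted p = 0.746). Slco1b2, a carrier of unconjugated bile acids and drugs, ranged from 1519 to 1633 CPM in CD Vec and from 866 to 1403 CPM in oncogene livers on CD. Although its groups did not overlap, the difference of -0.39 was not called (SE 0.19, adjusted p = 0.133). The falls of Cyp8b1, Slc10a1 and Slco1a1 on CD remained called in all 12 fits from which 1 library had been dropped and in all 8 other settings tried.

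Abcb11 and Nr0b2 were not called on CD. Abcb11 was at 269, 228 and 301 CPM in CD Vec and at 117, 255 and 297 CPM in CD c-MET/β-catenin (log2 fold change -0.26, SE 0.26, adjusted p = 0.48). Nr0b2 was at 90.7, 87.8 and 24.0 CPM in CD Vec and at 14.1, 58.5 and 31.2 CPM in CD c-MET/β-catenin (-0.97, SE 0.51, adjusted p = 0.166). CD c-MET/β-catenin replicate 1 was the lowest library for Abcb11, Nr0b2 and Slco1b2, and leaving it out gave Abcb11 a difference of 0.05. With a term for the clock genes, the differences were -0.02 for Slco1b2, 0.18 for Abcb11 and 0.02 for Nr0b2, none of them called. Nr0b2 was called without CD Vec replicate 3 (-1.37, adjusted p = 0.0333) and when CD c-MET/β-catenin replicate 2 was dropped (-1.58, adjusted p = 0.0434). Within the run of 7 libraries, which left 1 library in each of these groups, the differences were 0.38 for Nr0b2, 0.73 for Slco1a4, -2.81 for Cyp8b1, -2.03 for Slc10a1 and -1.55 for Slco1a1, without a test.

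**Figure D1:**
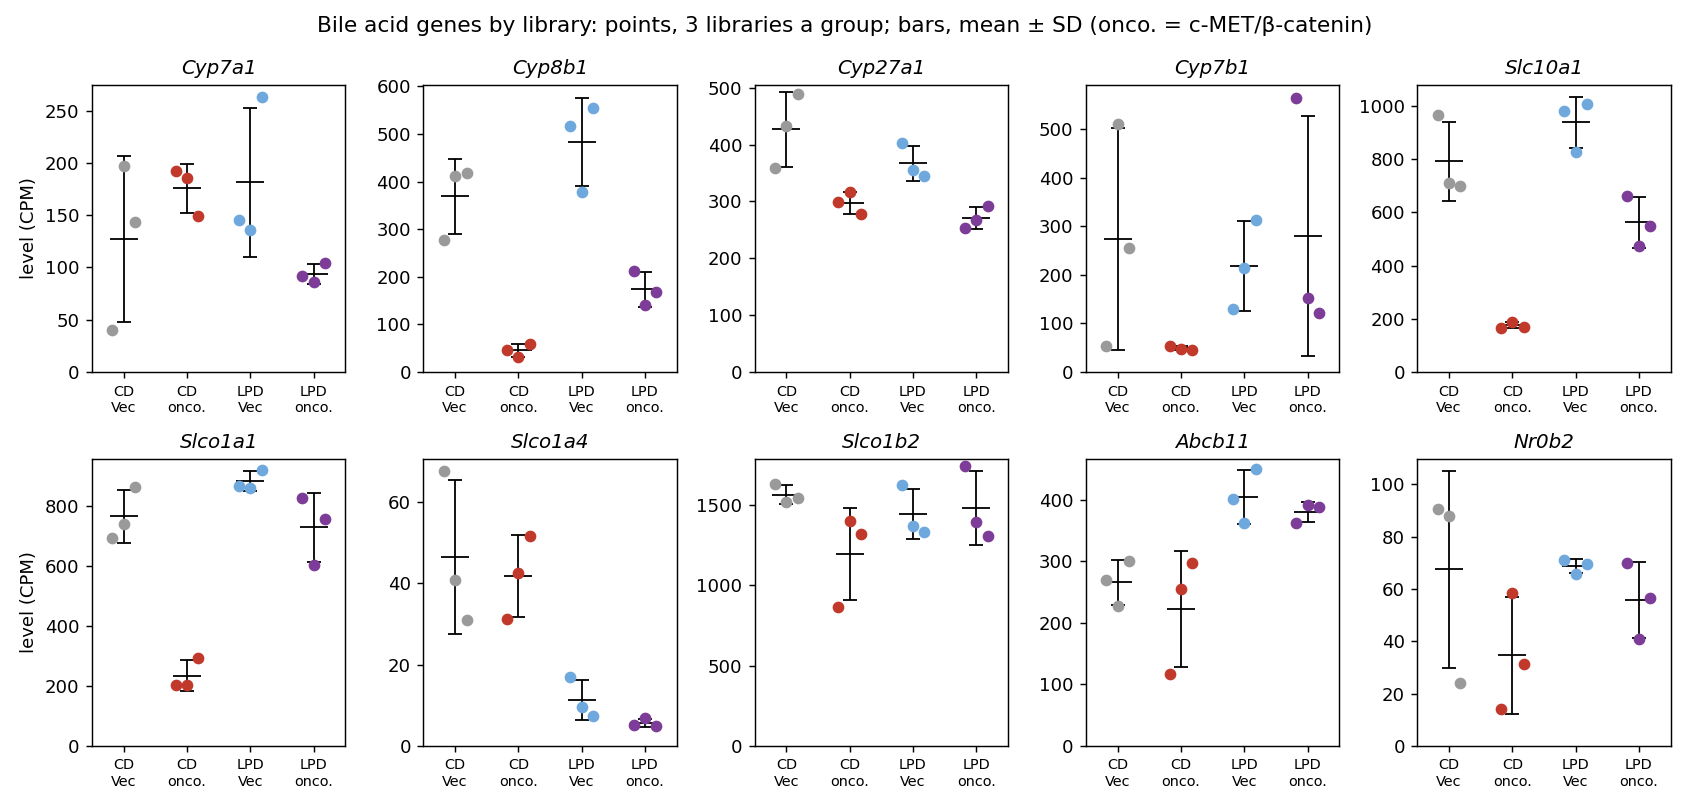
Level of each of the 10 genes in CPM (vertical axes, from 0) in the 3 libraries of each group (points, replicates 1 to 3 from left to right), with the group mean and SD (bars). Cyp8b1, Slc10a1 and Slco1a1 are lowest in CD c-MET/β-catenin livers, Slco1a4 is lower in both LPD groups than in both CD groups, and Cyp7b1 spreads widely in 3 of the 4 groups.

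On LPD, the same comparison called 1 of the 10 genes, Cyp8b1, which fell, and 4 had an unadjusted p under 0.05, all of them lower. Over all genes, 0.165% fell and 1.15% rose on LPD. The groups did not overlap for 6 of the 10 genes (Cyp7a1, Cyp8b1, Cyp27a1, Slc10a1, Slco1a1 and Slco1a4, all lower with the oncogenes), against 25.2% of all genes in either direction. Cyp8b1 was at 517, 378 and 554 CPM in LPD Vec and at 212, 140.1 and 168 CPM in LPD c-MET/β-catenin (-1.48, SE 0.26, adjusted p = 0.0153). Its call was lost when replicate 1 or 3 of LPD Vec, or replicate 2 or 3 of LPD c-MET/β-catenin, was left out, with adjusted p up to 0.0859. Slc10a1 was at 981, 829 and 1008 CPM in LPD Vec and at 663, 473 and 551 CPM in LPD c-MET/β-catenin, and its difference of -0.74 was just short of the threshold (SE 0.17, adjusted p = 0.0625). It passed with DESeq2 (adjusted p = 0.00195), with only the 2 groups compared in the fit (adjusted p = 0.0333) and without CD Vec replicate 1 (adjusted p = 0.0465).

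The remaining genes were not called by edgeR on LPD. Cyp27a1 had a difference of -0.44 (adjusted p = 0.198) and passed with DESeq2 (-0.45, adjusted p = 0.0468). Cyp7a1 was at 145, 135 and 263 CPM in LPD Vec and at 91.5, 86.0 and 104 CPM in LPD c-MET/β-catenin (-0.95, SE 0.44, adjusted p = 0.467), and Slco1a4 was at 16.8, 9.63 and 7.23 CPM and at 5.23, 6.81 and 4.90 CPM (-0.99, SE 0.35, adjusted p = 0.272). Slco1a1 lay between 859 and 921 CPM in LPD Vec and between 603 and 827 CPM in LPD c-MET/β-catenin (-0.28, adjusted p = 0.661). Cyp7b1 was at 129, 214 and 314 CPM in LPD Vec and at 564, 152 and 123 CPM in LPD c-MET/β-catenin (0.35, adjusted p = 0.93), where replicate 1 stood apart from the other two. That library also had the highest sum of male-biased genes, 6140 CPM, against 2700 and 3190 CPM in replicates 2 and 3.

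In livers without oncogenes, LPD changed 1 of the 10 genes. Slco1a4, which carries organic anions and is also found at the blood-brain barrier, fell from 46.5 ± 18.9 CPM (SD, n = 3) in CD Vec to 11.2 ± 5.0 CPM (SD, n = 3) in LPD Vec, 4.13-fold lower (log2 -2.05, SE 0.35, adjusted p = 0.0328). Among all genes, 0.122% fell and 0.186% rose in this comparison, and 17.2% did not overlap between the groups. Of the 10 genes, Slco1a4 and Abcb11 did not overlap. Abcb11 was higher on LPD, at 401, 363 and 451 CPM, but was not called (0.61, SE 0.26, adjusted p = 0.473). The Slco1a4 call was lost without CD Vec replicate 2, LPD Vec replicate 2, LPD Vec replicate 3 or replicate 3 of LPD c-MET/β-catenin (with adjusted p up to 0.184), though its difference stayed between -2.46 and -1.67 in the 12 fits that left out 1 library. It was also lost without the filter on low counts (adjusted p = 0.0526), with only the 2 groups compared in the fit (adjusted p = 0.0915), with a replicate block (adjusted p = 0.061) and with the clock genes (adjusted p = 0.0755).

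In livers with the oncogenes, LPD was associated with higher levels of 4 of the genes that were low on CD. Cyp8b1 rose from 45.7 ± 14.1 CPM on CD to 173 ± 36.3 CPM on LPD (SD, n = 3 in each group), 3.79-fold higher (log2 1.92, SE 0.26, adjusted p = 0.000886), a call that was lost with a term for the header runs (1.54, adjusted p = 0.0504). Slc10a1 rose from 176 ± 11.7 to 562 ± 95.6 CPM (1.68, SE 0.18, adjusted p = 0.000305), and Slco1a1 from 234 ± 52.5 to 729 ± 115 CPM (1.64, SE 0.18, adjusted p = 0.000375). Cyp7b1 rose by 2.51 (SE 0.75, adjusted p = 0.0371), with LPD c-MET/β-catenin replicate 1 far above the others, and was not called without that library (1.49, adjusted p = 0.158), without any 1 library of CD c-MET/β-catenin (adjusted p up to 0.111) or without LPD Vec replicate 2 (adjusted p = 0.0506). Nor was it called without the filter on low counts (adjusted p = 0.094) or with a replicate block (adjusted p = 0.0695). The same held with the header runs (adjusted p = 0.325) and with the clock genes (adjusted p = 0.116). Slco1a4 fell, from 41.8 ± 10.2 to 5.64 ± 1.02 CPM (7.37-fold lower, log2 -2.88, SE 0.36, adjusted p = 0.000614). For comparison, 8.66% of all genes rose and 11.3% fell between these groups.

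The groups did not overlap for 7 of the 10 genes, against 39.3% of all genes. Besides the 5 that were called, these were Cyp7a1, which was lower on LPD (-0.90, SE 0.44, adjusted p = 0.177), and Abcb11, which was higher (0.77, SE 0.26, adjusted p = 0.0593). Abcb11 passed with DESeq2 (adjusted p = 0.032) and when replicate 3 of CD c-MET/β-catenin was left out (adjusted p = 0.0228), and Cyp7a1 with only these 2 groups in the fit (adjusted p = 0.0111) and without CD Vec replicate 1 (adjusted p = 0.0229). Cyp27a1 differed little between the diets (-0.14), and Slco1b2 (0.31) and Nr0b2 (0.69) were not called. This comparison shares the CD c-MET/β-catenin libraries with the comparison of injections on CD, so that the fall on CD and the rise on LPD rest in part on the same 3 libraries.

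Whether the effect of the oncogenes differed between diets was tested by the interaction, the log2 fold change on LPD minus that on CD. The study reports that oncogene mice on LPD carried less tumour at this harvest. In bulk tissue the interaction cannot separate less tumour from a smaller response per cell, and the part of tumour burden was not tested. The interaction was called for Cyp8b1 (1.54, SE 0.36, adjusted p = 0.0246), Slc10a1 (1.43, SE 0.24, adjusted p = 0.00723) and Slco1a1 (1.44, SE 0.25, adjusted p = 0.00836). For these genes the oncogene effect was less negative on LPD than on CD. None of the 10 genes was called in the other direction, where 1, Cyp7a1, had an unadjusted p under 0.05. Over all genes, 4.49% had a positive and 4.42% a negative interaction. Cyp7b1 had the largest estimate, 2.83, but with an SE of 1.02 it was not called (adjusted p = 0.108). Cyp7a1 lay in the other direction (-1.42, SE 0.62, adjusted p = 0.178), as did Slco1a4 (-0.83), neither of them called. With a term for the header runs, none of the 3 was called (adjusted p = 0.257 for Cyp8b1, 0.0964 for Slc10a1 and 0.0977 for Slco1a1), although the estimates remained at 1.17, 1.41 and 1.15. With a term for the clock genes, Cyp8b1 alone was called (2.11, adjusted p = 0.0432). The Cyp8b1 call was lost without LPD Vec replicate 2 (1.38, adjusted p = 0.0741) and without replicate 1 or 3 of LPD c-MET/β-catenin (adjusted p = 0.0584 and 0.0557), and Cyp7b1 was called without CD Vec replicate 1 (3.31, adjusted p = 0.0384).

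**Figure D2:**
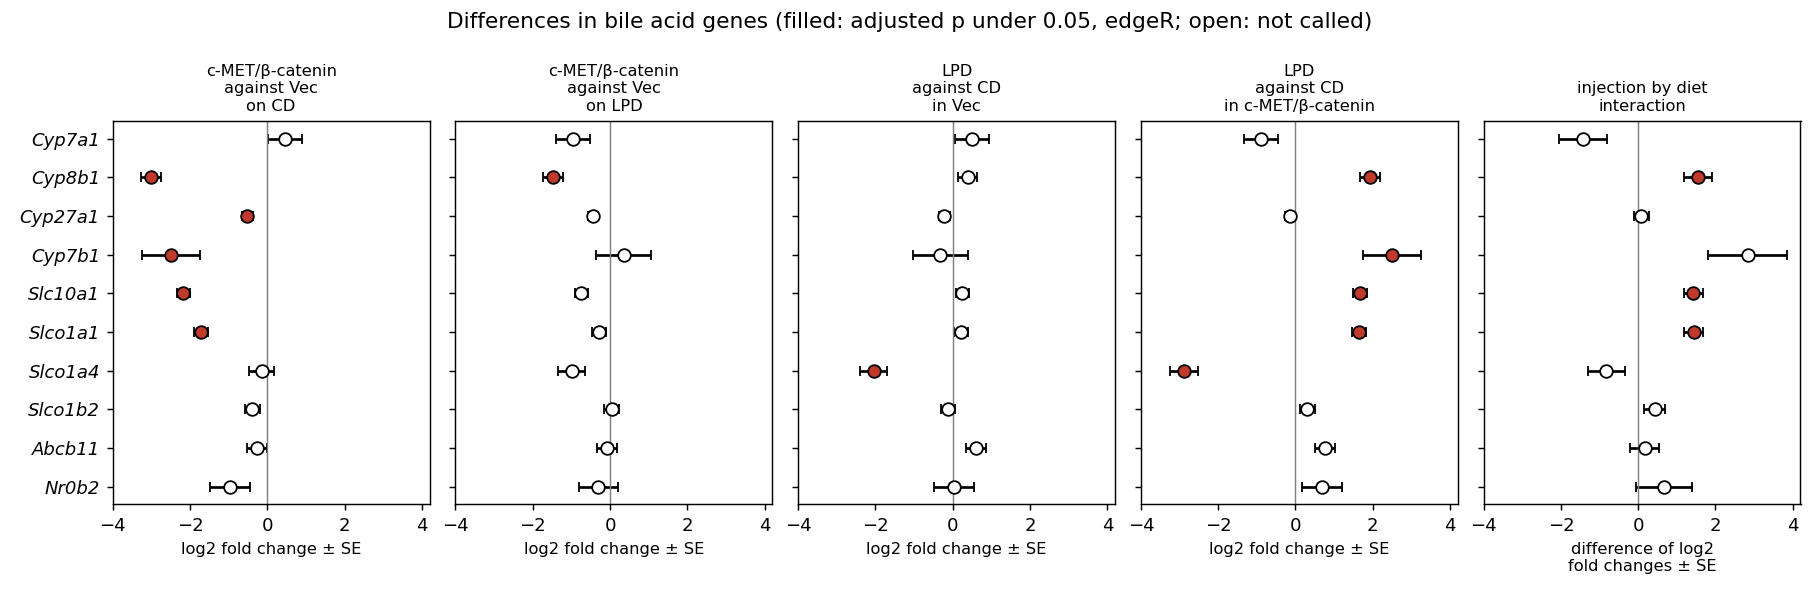
Log2 fold change of each gene (points) with its SE (bars) in the 4 comparisons and, in the last panel, the difference between the oncogene effects on LPD and on CD. Filled points passed an adjusted p of 0.05: 5 for the oncogenes on CD, 1 for the oncogenes on LPD, 1 for diet in Vec, 5 for diet in oncogene livers and 3 for the interaction.

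Per kilobase of exon, which allows levels to be compared between genes, Slc10a1 stood highest in CD Vec livers, at 360 ± 68 CPM per kb, followed by Slco1b2 at 318 ± 12.2 CPM per kb, a difference within the spread of Slc10a1 (SD, n = 3). Cyp27a1 (196 ± 30.4), Cyp8b1 (189 ± 40.6), Slco1a1 (145 ± 16.9) and Cyp7b1 (126 ± 105) came next, and Cyp27a1 and Cyp8b1 did not differ beyond their spread. Nr0b2 (59.6 ± 33.3), Abcb11 (51.7 ± 7.12) and Cyp7a1 (30.4 ± 19.1) overlapped one another, and Slco1a4 was lowest at 7.24 ± 2.94 CPM per kb. In CD c-MET/β-catenin livers Slco1b2 (243 ± 58.6) and Cyp27a1 (137 ± 8.90) led, Slc10a1 stood at 79.8 ± 5.34, and Cyp8b1 (23.4 ± 7.21) and Cyp7b1 (22.6 ± 2.03) lay under Cyp7a1 (42.1 ± 5.66). On LPD the oncogene livers had Slc10a1 at 256 ± 43.5, Cyp8b1 at 88.9 ± 18.6 and Cyp7a1 at 22.5 ± 2.24 CPM per kb.

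Ratios of counts within a library do not depend on how libraries were scaled. Cyp8b1 had 6.87, 2.09 and 2.90 reads for each Cyp7a1 read in CD Vec replicates 1 to 3, and 0.240, 0.169 and 0.400 in CD c-MET/β-catenin replicates 1 to 3. In LPD Vec the ratio was 3.55, 2.79 and 2.10, and in LPD c-MET/β-catenin 2.32, 1.63 and 1.61, so the CD c-MET/β-catenin livers were the only ones with fewer Cyp8b1 than Cyp7a1 reads. Slc10a1 had 2.33 to 3.58 reads for each Abcb11 read in CD Vec and 0.576 to 1.42 in CD c-MET/β-catenin, compared with 2.24 to 2.45 in LPD Vec and 1.21 to 1.83 in LPD c-MET/β-catenin. Against Slco1b2 the 4 groups did not overlap, with 0.603 to 0.754 Slc10a1 reads for each Slco1b2 read in LPD Vec, 0.453 to 0.591 in CD Vec, 0.339 to 0.421 in LPD c-MET/β-catenin and 0.129 to 0.192 in CD c-MET/β-catenin. Between the neighbours Slco1a1 and Slco1a4 the ratio ran from 4.80 to 6.48 in CD c-MET/β-catenin, 10.2 to 27.9 in CD Vec, 51.5 to 127 in LPD Vec and 88.6 to 158 in LPD c-MET/β-catenin. These ratios were not tested.

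**Figure D3:**
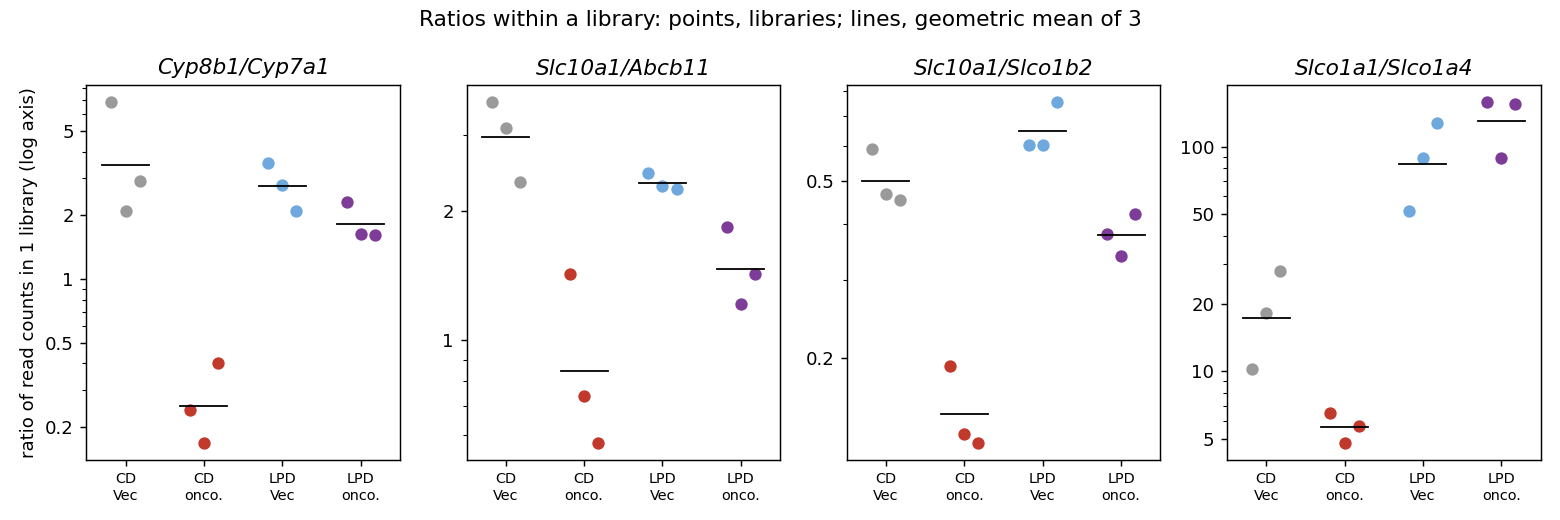
Ratios of read counts between pairs of genes within each library (points, log axes), with the geometric mean of each group (lines). CD c-MET/β-catenin livers are lowest for the Cyp8b1 to Cyp7a1 ratio (0.169 to 0.400), and LPD livers of both kinds are highest for the Slco1a1 to Slco1a4 ratio (51.5 to 158).

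Cyp8b1, Slc10a1 and Slco1a1 varied together over the 12 libraries, with Pearson's r of log2 CPM of 0.95 for Cyp8b1 and Slc10a1, 0.94 for Cyp8b1 and Slco1a1, and 0.95 for Slc10a1 and Slco1a1. The points share groups and libraries, so these values describe the pattern and carry no test. The genes most like each member over the 12 libraries were Tmem250-ps (r = 0.968) and Trhde (0.965) for Cyp8b1, Lactb (0.986) and Efna5 (0.98) for Slc10a1, and Gm4788 (0.982) and Dnaja3 (0.981) for Slco1a1. Cyp7b1 was most like Serpina12 (0.967) and Klhl2 (0.949), and Slco1a4 was most like Ehd1 (0.928) and Hspa2 (0.923). For Cyp7a1 they were Erc2 (0.891) and Prdx4 (0.846), for Cyp27a1 Etnk2 (0.899) and Ebp (0.895), for Slco1b2 Osbpl2 (0.962) and Armc1 (0.937), for Abcb11 Pds5b (0.971) and Ehbp1 (0.95), and for Nr0b2 Armt1 (0.926) and Bcar1 (0.903).

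The other enzymes of bile acid synthesis and conjugation, of which 13 of 14 could be tested, showed 7 that fell and 1 that rose on CD with the oncogenes (median log2 fold change -0.88), against 16.7% and 18.7% of all genes (median -0.01). Baat, which joins bile acids to taurine, fell by 1.86 (SE 0.19, adjusted p = 4.79e-05), with 268, 297 and 282 CPM in CD Vec libraries and 55.1, 77.1 and 102 CPM in oncogene libraries. Slc27a5, the ligase that activates bile acids for conjugation, fell by 1.46 (adjusted p = 9.6e-05), Slc27a2, a ligase for the side chain, by 1.55 (adjusted p = 0.000173), and Scp2 and Hsd17b4, which act in peroxisomal side chain shortening, by 0.96 and 0.88. Akr1d1, the steroid reductase of the ring, fell by 1.49 (adjusted p = 0.0079) and was the 1 gene of this list that fell on LPD (-1.70, adjusted p = 0.0476). Cyp46a1, a cholesterol hydroxylase, fell by 5.04 (adjusted p = 0.000635), with 22.3, 4.49 and 2.45 CPM in the CD Vec libraries and 0.187 to 0.367 CPM in the oncogene livers on CD.

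With LPD in oncogene livers 7 of these 13 genes rose and none fell, against 8.66% and 11.3% of all genes, among them Baat by 1.55 (adjusted p = 0.000544), Slc27a2 by 1.14 and Hsd17b4 by 0.90. The interaction was positive for 5 (Scp2, Slc27a5, Slc27a2, Baat and Cyp46a1) and negative for 1, Cyp39a1, against 4.49% and 4.42% of all genes. Cyp39a1, an oxysterol hydroxylase, was the gene that rose on CD with the oncogenes (1.89, adjusted p = 0.00537), and it also rose on LPD in Vec livers (2.86, adjusted p = 0.0262), the 1 gene of the list called there. It was at 15.5, 4.15 and 10.2 CPM in CD Vec and between 23.5 and 87.7 CPM in the other 9 libraries (interaction -2.14, SE 0.58, adjusted p = 0.0441).

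Among 11 of 13 other transporters that could be tested, 3 rose and 3 fell on CD with the oncogenes, where 18.7% and 16.7% of all genes did, so that these counts lay near the background. Abcc4, which exports bile acids back to blood, rose on CD (2.50, SE 0.57, adjusted p = 0.00548) and on LPD (2.61, SE 0.56, adjusted p = 0.0476), the 1 transporter called on LPD. Slc10a2, the bile acid carrier of intestine and bile ducts, rose by 1.10 on CD (adjusted p = 0.0033), and Atp8b1 rose by 0.65. Abcc3, a basolateral exporter, fell by 2.24 (adjusted p = 0.00578), Slco2b1 by 1.62 (adjusted p = 5.98e-05) and Abcg5, a sterol exporter, by 0.64. In Vec livers LPD raised Abcb4, the phospholipid exporter of bile (0.71, SE 0.12, adjusted p = 0.0325). In oncogene livers it raised Abcb4 (0.58) and Slco2b1 (0.71) and lowered Slc10a2 (-1.69, adjusted p = 0.000993), and the interaction was called for Slco2b1 (1.26, adjusted p = 0.0117).

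Of 15 tested regulators, 5 fell and none rose on CD with the oncogenes, against 16.7% and 18.7% of all genes. Nr1h4, which encodes FXR, fell by 1.10 (SE 0.18, adjusted p = 0.000685), Nr1i3, the receptor CAR, by 1.33 (adjusted p = 0.00105), and Nr1h3, the oxysterol receptor LXRα, by 0.52 (adjusted p = 0.0327). The liver transcription factors Onecut1 and Foxa2 fell by 2.71 (adjusted p = 0.00268) and 0.71 (adjusted p = 0.00454). Hnf4a (-0.09, adjusted p = 0.735) and Nr5a2, which encodes LRH-1 (-0.09, adjusted p = 0.791), were not called, nor were the FGF15 receptor genes Fgfr4 (0.08) and Klb (-0.38). None of the 15 was called by edgeR on LPD (0 at an unadjusted p under 0.05, 0 by DESeq2) or between diets in Vec livers, where 1 was higher and 4 were lower at an unadjusted p under 0.05 and DESeq2 called 1. In oncogene livers LPD raised Nr1h4 (0.96, adjusted p = 0.0038) and Onecut1 (1.79, adjusted p = 0.0336) and lowered Ppargc1a (-1.12, adjusted p = 0.0229), and the interaction was positive for Nr1h4 (0.94), Onecut1 (3.72) and Foxa2 (0.80). Of 4 tested targets of xenobiotic receptors that modify bile acids, Cyp3a11 and Sult2a8 fell on CD (-1.26 and -2.69) and rose with LPD in oncogene livers (1.64 and 1.84), and the interaction was called for Sult2a8 (2.12). None of the 4 was called on LPD or between diets in Vec livers, by edgeR, by DESeq2 or at an unadjusted p under 0.05.

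**Figure D4:**
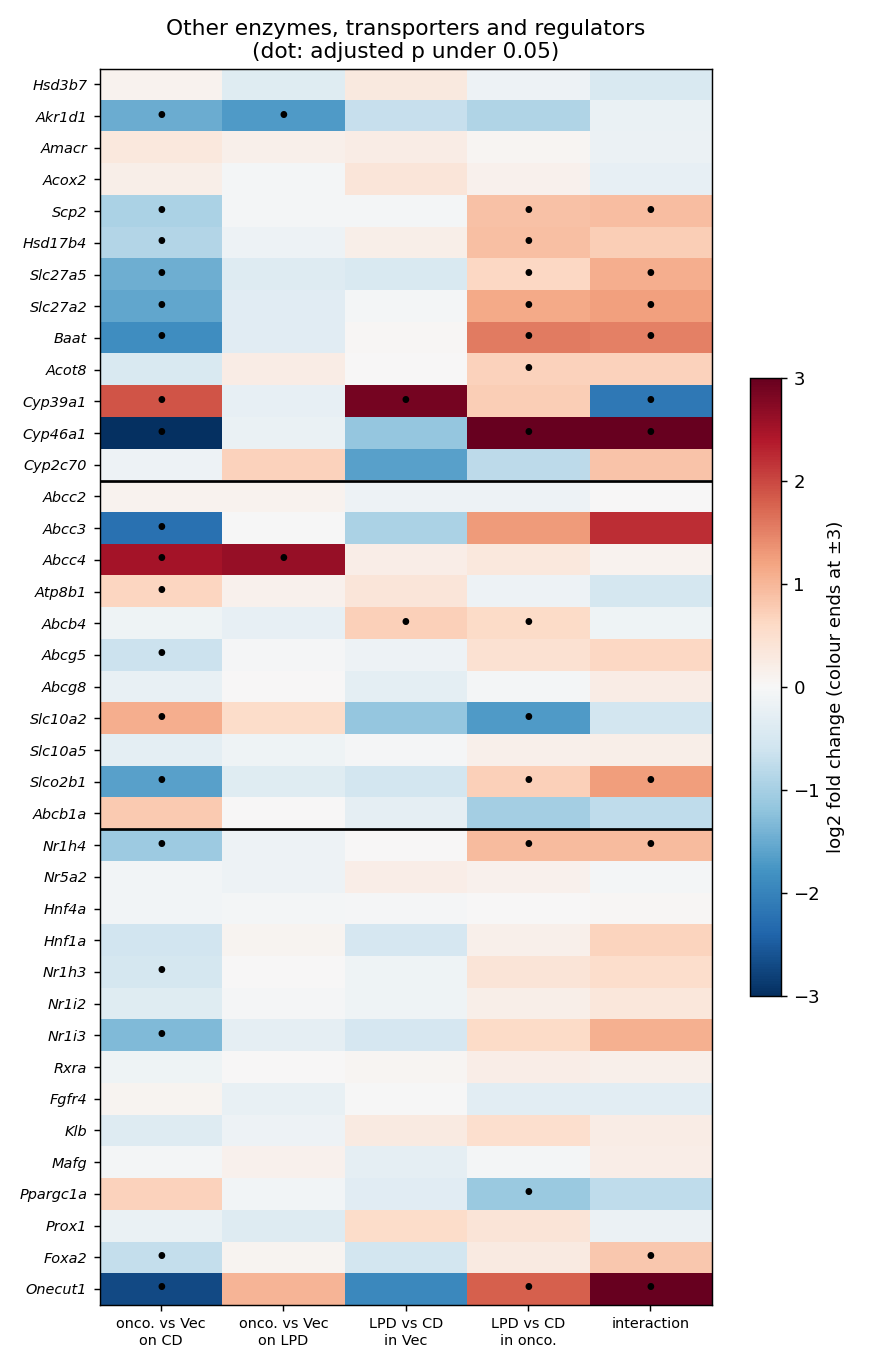
Log2 fold changes (colour, ends at 3 in either direction) of 39 other genes of the pathway in the 5 comparisons, with enzymes, transporters and regulators separated by lines and dots on values with an adjusted p under 0.05. The columns for the oncogenes on CD and for diet in oncogene livers hold most of the dots, with opposite colours for Baat, Slc27a2, Slco2b1, Nr1h4 and Onecut1.

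Other lists of liver genes were counted in the same comparisons, and their part in these results was not tested. Over all genes, 18.7% rose and 16.7% fell on CD, and 8.66% rose and 11.3% fell with LPD in oncogene livers. The oncogenes on LPD came with 1.15% higher and 0.165% lower, and the interaction was positive for 4.49% and negative for 4.42%. On CD all 8 periportal genes fell and 6 of 8 pericentral genes rose, with summed levels of 7510 to 11300 and 1050 to 2050 CPM for periportal genes in CD Vec and CD c-MET/β-catenin. On LPD no periportal gene was called (1 lower at an unadjusted p under 0.05, 0 by DESeq2) and 5 pericentral genes rose. LPD raised 5 periportal and lowered 5 pericentral genes in oncogene livers, changed none of either list in Vec livers by edgeR (5 periportal and 2 pericentral genes lower at an unadjusted p under 0.05, 2 and 1 called by DESeq2), and 4 periportal genes had a positive and 3 pericentral genes a negative interaction. Of 8 male-biased genes, 5 fell on CD and 5 rose with LPD in oncogene livers (4 positive interactions), and none was called on LPD (0 at an unadjusted p under 0.05, 0 by DESeq2) or between diets in Vec livers (3 at an unadjusted p under 0.05, 2 by DESeq2). Of 6 tested female-biased genes, 3 rose on CD and none was called elsewhere by edgeR, although 4 were higher on LPD at an unadjusted p under 0.05 and DESeq2 called 1 there. Of 11 clock genes, 2 rose and 3 fell on CD, 1 fell with LPD in oncogene livers, and the interaction was called for 1 in each direction. Of 8 acute phase genes, 2 rose and 1 fell on CD, and 1 fell with LPD in each of the Vec and oncogene livers.

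Of 39 tested markers of liver cell types, edgeR called 0 on LPD (11 at an unadjusted p under 0.05, 3 by DESeq2) and 0 between diets in Vec livers (3 at an unadjusted p under 0.05, 1 by DESeq2). Among 7 hepatocyte markers 4 fell with the oncogenes on CD, and LPD raised 1 and lowered 2 in oncogene livers. Cholangiocyte markers, 6 of 7 tested, summed to 47.8 to 65.6 CPM in CD Vec, 71.4 to 82.2 CPM in LPD Vec and 64.1 to 69.6 CPM in LPD c-MET/β-catenin, and to 142 to 403 CPM in oncogene livers on CD. Spp1 made up most of these sums, with 368, 280 and 111 CPM in the oncogene livers on CD and 28.3 to 38.6 CPM in CD Vec. Of the 6, Krt19 and Spp1 rose on CD and fell with LPD in oncogene livers, whereas Epcam (-0.50, adjusted p = 0.398), Sox9 (-0.41, adjusted p = 0.393) and Krt7 (0.33, adjusted p = 0.663) were not called on CD. Of 7 macrophage markers, 2 rose on CD and 2 fell with LPD in oncogene livers. Stellate cell markers (7) had 3 that rose and 2 that fell on CD, and 2 that rose and 3 that fell with LPD in oncogene livers. Endothelial markers (6) had 2 that fell on CD and 2 that rose with LPD in oncogene livers, and lymphocyte markers (6) had 2 that rose on CD and 1 that rose with LPD in oncogene livers.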

How the data were processed

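Integer read counts per gene were used as deposited by the authors, without normalization. Per the labels and the authors' methods, reads were aligned to mm10 with HISAT2 and counted with featureCounts under Entrez identifiers, and DESeq is named among the processing tools. Versions, the strand setting and the treatment of multi-mapping reads are not given in the sources used here. The labels describe depletion of ribosomal RNA, and the methods describe selection of mRNA. Column names call chow HPD, and the labels' chow was kept.

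Members were found by Entrez identifier through RefSeq GRCm38.p6 symbols (93.1% of 27179 identifiers had a symbol). All 12 libraries entered 1 fit in edgeR 4.0.16 (R 4.3.3) with TMM factors (0.864 to 1.12), filterByExpr and the quasi-likelihood test with robust dispersion, with 1 coefficient per group. Benjamini-Hochberg adjustment ran over 13947 genes, and SE was obtained as the size of the log2 fold change divided by the root of its F statistic. On simulated data, 85.5% to 86.5% of 200 genes changed 4-fold were called in the 4 group comparisons and 70.5% in the interaction, and 4.08% to 7.98% of calls were false. Replicate libraries differed by more than sampling noise. CPM per kb uses merged GENCODE M21 exons, and matches of 50-base windows use its transcripts. DESeq2 1.42.0 and other settings were alternatives.

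The members, gene lists and tests were chosen with earlier results of these data known. Named genes were the 10 members, the called or defining genes of the lists and, for each member, the 2 genes with the highest correlation over 12 libraries.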

Additional observations from a re-analysis of the deposited data

Results flagged for a closer look

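The effect of the oncogenes differed between the diets, by the interaction term in edgeR, for 3 of the 10 genes, all positive. Among all genes tested, 4.49% had a positive and 4.42% a negative interaction. The study reports a lower tumour burden on LPD at this harvest, which cannot be told apart from a weaker effect of the oncogenes. The difference between the log2 fold changes on LPD and on CD was 1.54 for Cyp8b1 (-1.48 against -3.01), 1.43 for Slc10a1 (-0.74 against -2.17) and 1.44 for Slco1a1 (-0.28 against -1.71). All 3 had a lower mean with the oncogenes on both diets. In the fits that left out 1 library, the interaction was called in 12 of 12 for Slc10a1 and Slco1a1 and in 9 of 12 for Cyp8b1. With a term for the header runs all 3 calls were lost (adjusted p = 0.257 for Cyp8b1, 0.0964 for Slc10a1 and 0.0977 for Slco1a1), and with a term for the clock genes those of Slc10a1 (adjusted p = 0.0765) and Slco1a1 (adjusted p = 0.0546).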

How the results depend on the processing

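The falls of Cyp8b1, Slc10a1 and Slco1a1 on CD, and the changes of Slc10a1, Slco1a1 and Slco1a4 with LPD in oncogene livers, kept their direction and their call in all 20 alternative settings. Of the 10 genes, the number called on CD was 5, and 3 with a term for the header runs or for the clock genes, and 4 with total counts, without the filter on low counts, with only the 2 groups compared or with a replicate block. On LPD it was 1, but 3 with DESeq2 and 2 with only the 2 groups compared in the fit. Between diets in Vec livers it was 1, and 0 without the filter on low counts, with only the 2 groups compared, with a replicate block or with the clock genes. Between diets in oncogene livers it was 5, and 3 with the header runs, which lost Cyp8b1 and Cyp7b1, 4 without the filter or with the clock genes, which lost Cyp7b1, and 6 with DESeq2, which added Abcb11, or with only the 2 groups compared, which added Cyp7a1. For the interaction it was 3, with 0 for the header runs and 1 for the clock genes. Leaving out 1 library at a time gave 4 to 5, 0 to 2, 0 to 1, 4 to 6 and 2 to 4 of the 10 genes in the 5 comparisons in that order. Over all genes the number called also moved. On CD it was 4933, and 945 with the header runs and 1744 with the clock genes. On LPD it was 184, and 481 with DESeq2. Between diets it was 43 in Vec livers, and 45 with the clock genes. In oncogene livers it was 2784, and 618 with the header runs and 1320 with the clock genes. For the interaction it was 1243, and 85 with the header runs and 224 with the clock genes. The cause of these losses was not tested.

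A check for pairing of libraries by replicate number showed none, but with 3 libraries a group it cannot exclude a shared litter, day or batch. Deviations of same-numbered libraries from their group means correlated at -0.26 to 0.20, as did those of other numbers (-0.26 to 0.26), and 2 of 12 libraries correlated best with their own number. The replicate block left 4520, 151, 16, 2380 and 812 genes called of all tested, against 4933, 184, 43, 2784 and 1243 without it. Among members it lost Cyp7b1 on CD (adjusted p = 0.054), Slco1a4 in Vec livers (adjusted p = 0.061) and Cyp7b1 in oncogene livers (adjusted p = 0.0695), and added Abcb11 in oncogene livers (adjusted p = 0.0496).

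Only values that had not been called changed sign. On CD, Slco1a4 was at 0.13 when scaled by total counts, 0.80 with the header runs, 0.11 with the clock genes and -0.37 to 0.22 when 1 library was left out, and Abcb11 was at 0.03, 0.07, 0.18 and -0.52 to 0.05 under the same settings. Cyp7a1 on CD was at -0.01 with the header runs, and Nr0b2 at 0.02 with the clock genes. On LPD, Abcb11 was at 0.02 when scaled by total counts, and leaving out 1 library gave -0.10 to 0.13 for Slco1b2 and -0.67 to 0.71 for Cyp7b1. Between diets in Vec livers, Slco1b2 was at 0.02 with the clock genes, and leaving out 1 library gave -0.80 to 0.49 for Cyp7b1 and -0.37 to 0.31 for Nr0b2. The interaction was at -0.10 (total counts), -0.05 (clock genes) and -0.04 to 0.19 (1 library left out) for Cyp27a1, at -0.01, -0.20 (header runs), -0.25 and -0.14 to 0.43 for Abcb11, and at -0.26 with the clock genes for Nr0b2. With scaling by total counts the median over all genes of the log2 fold change became 0.278 on CD, 0.121 on LPD and -0.156 for the interaction.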
